A study of Homo sapiens with 6 samples.

Results

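CSF1 (macrophage colony stimulating factor) and CSF2 (granulocyte-macrophage colony stimulating factor) were read as a pair, taken from the table by gene name with earlier results of these data known, and each has a row, so the members are 2 of 1630 listed genes. The libraries are bulk RNA of U87MG, an established human glioblastoma cell line. The 3 shCREPT libraries carry a short hairpin RNA against CREPT, the product of RPRD1B, which binds RNA polymerase II. The 3 shControl libraries carry a control hairpin and are labelled NC. The labels name no further treatment, and they do not say whether 1 hairpin or several were used, or whether the libraries of a group are separate cultures, so the p-values measure a spread that may be technical.

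Each of these proteins drives the growth and survival of myeloid cells, but through unrelated receptors. CSF1 binds the receptor tyrosine kinase CSF1R on monocytes, macrophages and microglia, and it is made both as a secreted protein and as one held at the cell surface. CSF2 binds a receptor of the chains CSF2RA and CSF2RB and signals through JAK2 and STAT5 in granulocytes, macrophages and dendritic cells. In glioblastoma, CSF1 from tumour cells is a known attractant of macrophages and microglia. CSF2 is usually silent in resting cells and is switched on by NF-kappaB, NFAT and AP-1 factors. The title of the series puts CREPT beside an immunosuppressive microenvironment, and the question here is whether 2 signals to myeloid cells differ when CREPT is targeted.

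CSF2 (ENSG00000164400) lies on chromosome 5, 132073790 to 132076170 on the plus strand (GRCh38), with 1 annotated transcript and 787 exonic bases. Its promoter is shown because CSF2 was near 0 in shControl libraries and present in each shCREPT library. The stretch is chr5:132073539-132073838, plus strand, GRCh38.p14, from RefSeq, and holds 250 bases before the annotated start and 50 after it. Capitals mark, from 5′ to 3′, the NFAT core GGAAA on the plus strand at 2 places, the RUNX motif TGTGGT, the NFAT core on the minus strand (read as TTTCC) and the TATA variant TATTTA.
CSF2: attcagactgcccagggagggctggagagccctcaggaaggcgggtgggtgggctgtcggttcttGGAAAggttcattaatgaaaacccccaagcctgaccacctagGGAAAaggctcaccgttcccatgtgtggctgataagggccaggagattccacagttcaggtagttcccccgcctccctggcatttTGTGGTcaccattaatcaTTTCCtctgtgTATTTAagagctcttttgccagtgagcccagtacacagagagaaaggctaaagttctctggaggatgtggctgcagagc
Searched on both strands, GGAAA had 3 matches here and occurs in 61.2% of 35116 promoters of the same length. TGTGGT had 1 match (13.1% of promoters) and TATTTA 1 match (12.6%). GGGAA, part of many NF-kappaB sites, had 3 matches (65.0% of promoters), left in lower case where alone, and 1 of them overlaps the second GGAAA. The GATA motif TGATAA had 1 match (7.53%), also left in lower case. The choice of motifs in capitals does not follow how rare they are and does not rank them. The AP-1 motif TGANTCA, the NF-kappaB consensus and TATAAA had 0 matches in this window and occur in 7.71%, 5.91% and 11.5% of promoters. A count of 0 covers these exact letters alone, and sites that depart from them are not counted. These are matches of letters and no binding was measured.

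CSF2 was higher in shCREPT cells. Its deposited normalized values were 0.97, 2.53 and 1.81 in shCREPT libraries 1 to 3, and it was listed at 0, 0 and 0.11 in shControl libraries 1 to 3. The groups did not overlap, as in 93.3% of the listed genes, and the lowest shCREPT value was 8.82 times the highest shControl value. The shCREPT mean was 1.77 ± 0.781 (SD, n = 3). No fold against shControl is given from these values, since shControl libraries 1 and 2 are listed at 0. In the authors' deposited table the fold is 45.4, a log2 fold of 5.51, with an adjusted p of 0.000305.

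CSF1 (ENSG00000184371) was lower in shCREPT cells by the deposited values. It lies on chromosome 1, 109910242 to 109930992 on the plus strand (GRCh38), with 9 annotated transcripts, 8 of them protein-coding, that the gene-level values do not tell apart. Its values were 83.58, 85.14 and 81.89 in shCREPT libraries 1 to 3, against 164.76, 161.06 and 184.97 in shControl libraries 1 to 3. The groups did not overlap, as in 93.3% of the listed genes, and shControl library 3 stood highest. The means were 83.5 ± 1.63 in shCREPT and 170 ± 12.9 in shControl (SD, n = 3 each), a level 2.04-fold lower. The lowest shControl value was 1.89 times the highest shCREPT value. In the authors' deposited table the fold is 0.488, a log2 fold of −1.03, with an adjusted p of 1.39e-68.

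**Figure D1:**
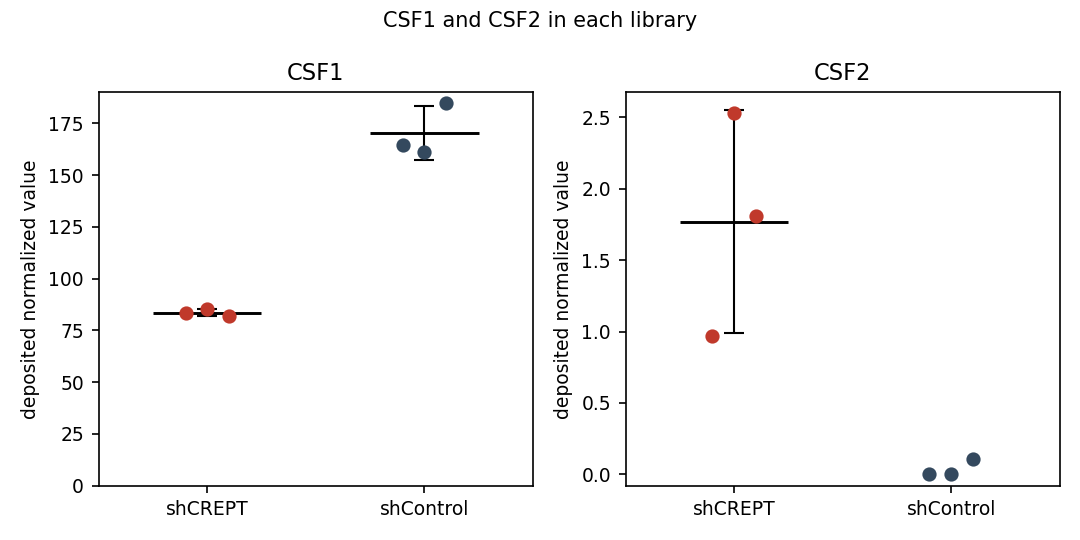
Deposited normalized values (no unit given) of CSF1 and CSF2 in each library, shCREPT in red and shControl in dark blue; horizontal lines are means and bars 1 SD (n = 3), not drawn for CSF2 in shControl, where libraries 1 and 2 are listed at 0. CSF1 sits between 81.89 and 85.14 in shCREPT and between 161.06 and 184.97 in shControl, and CSF2 between 0.97 and 2.53 in shCREPT and between 0 and 0.11 in shControl.

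The levels of the 2 genes lay far apart. CSF1 was 62nd to 64th from the top of the 1630 listed genes in shCREPT libraries and 31st to 39th in shControl libraries. CSF2 was above 36.5%, 55.5% and 49.1% of the listed genes in shCREPT libraries 1 to 3 and above 6.38% of them in shControl library 3. On the deposited scale CSF1 remained above CSF2 in each shCREPT library, by 86.2-fold, 33.7-fold and 45.2-fold. The headers do not say whether that scale is per length. Divided by exonic length (5418 bases for CSF1), the same ratios would be 12.5, 4.89 and 6.57, so the order holds on either reading. In shControl library 3 the ratio was 1680 as deposited and would be 244 divided by exonic length. It rests on a CSF2 value of 0.11 alone, and shControl libraries 1 and 2, with CSF2 at 0, give no ratio.

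CSF2 varied more between libraries than most genes at its level, and CSF1 in shCREPT less. CSF2 had a coefficient of variation of 44.1% over the shCREPT libraries, against a median of 21.9% over the 430 other listed genes with a shCREPT mean within a factor of 2 of its own, and 87.2% of those varied less. CSF1 varied by 1.95% in shCREPT libraries, where 106 listed genes at a like level had a median of 5.61%. In shControl libraries CSF1 varied by 7.56%, and 58 genes at a like level had a median of 5.6%.

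With limma on log2(value + 1) over all listed genes, the log2 change was 1.38 ± 0.21 for CSF2 (SE; 95% interval 0.87 to 1.89; Benjamini-Hochberg adjusted p = 0.00097). It was −1.02 ± 0.08 for CSF1 (SE; 95% interval −1.22 to −0.81; Benjamini-Hochberg adjusted p = 5.73e-05). The log2 change of CSF2 understates its fold because its values are small against the added 1. Both members passed the threshold of 0.05, as did 91.8% of the listed genes, 37.4% higher and 54.4% lower. The groups did not overlap in 93.3% of the listed genes. The authors listed only genes that passed their own threshold on this same contrast, so a pass here is close to given and is no separate support. An exact two-sided permutation test gave p = 0.1 for each gene, the smallest that 3 against 3 libraries allow.

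The size of the CSF1 change depended on how the libraries were scaled. After median-of-ratios rescaling over the listed genes its log2 change was −0.14 ± 0.08 (SE; 95% interval −0.34 to 0.06; limma adjusted p = 0.159), and it no longer passed. That rescaling centres the listed genes on their own median ratio and raises every shCREPT value against shControl by 0.88 on the log2 scale. On log2(value + 1) it moved the median change of the listed genes from −0.47 to −0.13 and the share called to 67.1%, 39.2% higher and 27.9% lower. CSF2 kept its direction and call under it, at 1.66 on the log2 scale (limma adjusted p = 0.000725). Median-of-ratios rescaling takes most genes as unchanged, while every listed gene was selected for a difference (973 marked down, 657 marked up). A call lost under it, for CSF1 or for genes named below, therefore cannot tell whether the gene differs. Under quantile normalization over the listed genes the log2 change of CSF1 was −0.72 ± 0.09 (SE; limma adjusted p = 0.000391). How unlisted genes would set the scale was not tested.

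**Figure D2:**
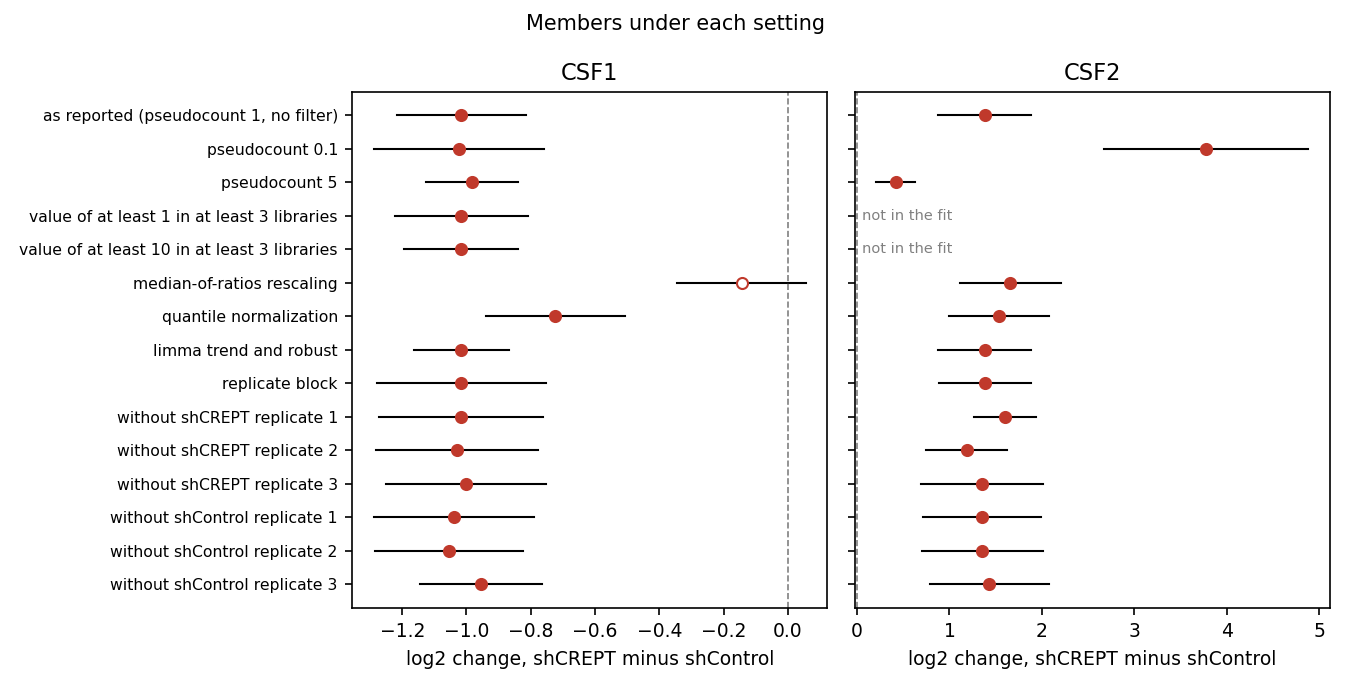
Change of CSF1 (left) and CSF2 (right) in log2 units, shCREPT minus shControl, with the 95% limma interval as a line, under each setting; filled points passed an adjusted p of 0.05 and the open point did not. CSF1 stays between −1.05 and −0.72 except under median-of-ratios rescaling (−0.14), and the size for CSF2 follows the pseudocount, from 0.42 at 5 to 3.77 at 0.1.

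Among the authors' own folds the pair differed in place. CSF1 stood near the threshold: 47 of the 973 genes marked down have a smaller absolute log2 fold in the authors' deposited table, where the median of the genes marked down is −1.58. CSF2 stood at the far end: 12 of the 657 genes marked up have a larger log2 fold in the authors' deposited table, where their median is 1.51. That place of CSF2 rests on shControl values of 0, 0 and 0.11. At 0 in at least 2 shControl libraries were 40 listed genes, CSF2 included. All of them are marked up, which the selection of the listed genes all but fixes, since such a gene has little room to be lower.

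**Figure D3:**
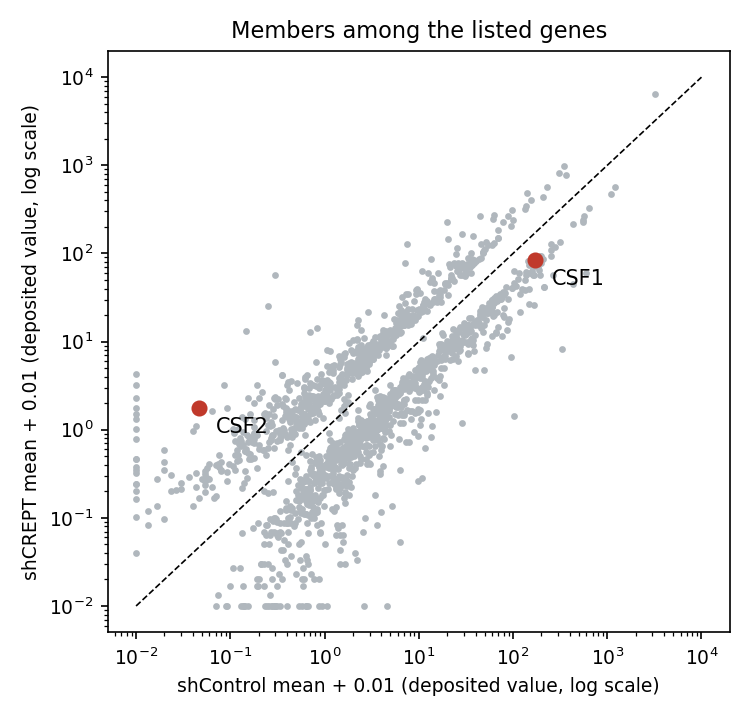
Mean deposited value in shCREPT (vertical) against shControl (horizontal) for the 1630 listed genes, both with 0.01 added and on log axes; the dashed line marks equal means and red points the members. CSF1 lies close under the empty band left by the authors' threshold at a high level, and CSF2 above the line at a low level, where its distance from the line rests on a shControl mean made of 0, 0 and 0.11 and on the added 0.01.

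Of 16 ligands and receptors of the colony stimulating factor, interleukin-3 and related kinase families, 3 have a row, 1 higher (CSF2) and 2 lower (CSF1 and KITLG). In this and the lists that follow, higher and lower mean past the adjusted p of 0.05, which nearly all listed genes are, so these counts are not a result about the lists. KITLG, the ligand of the receptor KIT, had values of 2.2, 2.16 and 2.39 in shCREPT libraries, against 5.09, 5.43 and 5.83 in shControl libraries. Its mean was 2.42-fold lower. On the log2(value + 1) scale, where the added 1 shrinks the change of such a low gene, it changed by −0.99 ± 0.08 (SE; limma adjusted p = 5.65e-05). CSF3, IL34, CSF1R, CSF2RA and CSF2RB are among the 13 without a row, which says only that they are not in the authors' selection. None of 5 genes for the shedding of CSF1 from the cell surface, such as ADAM17, has a row.

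Of 32 regulators known from work on CSF promoters, 5 have a row, 2 higher and 3 lower. They belong to the NFAT and calcineurin branch, whose genes differ in direction, and to early response factors. No NF-kappaB gene of the list has a row, which says only that none is in the authors' selection. NFATC2, a calcium-regulated factor that binds GGAAA cores, had 1.43, 1.02 and 1.36 in shCREPT libraries, against 0.18, 0.21 and 0.11 in shControl libraries. The groups did not overlap, as in 93.3% of the listed genes. The mean of NFATC2 was 7.62-fold higher, a fold that rests on shControl values near 0. On log2(value + 1), which understates this fold, it rose by 0.96 ± 0.10 (SE; limma adjusted p = 0.000151). PPP3CA, a catalytic subunit of calcineurin, the phosphatase that activates NFAT, had 10.85, 11.26 and 10.47 in shCREPT libraries, against 21.66, 23.8 and 23.04 in shControl libraries. PPP3CA fell 2.10-fold on the deposited scale, and its call was lost under median-of-ratios rescaling (log2 change −0.18; limma adjusted p = 0.0757). RCAN1, a feedback regulator of calcineurin, had 55.8, 63.49 and 61.27 in shCREPT libraries, against 546.16, 606.6 and 611.49 in shControl libraries, a level 9.77-fold lower. FOSL1, an AP-1 subunit, had a mean of 77.5 ± 5.60 in shCREPT and 25.9 ± 2.18 in shControl (SD, n = 3 each). EGR1, an early response factor, had 4.04 ± 0.785 in shCREPT and 9.75 ± 0.940 in shControl (SD, n = 3 each), and its call was lost under median-of-ratios rescaling (limma adjusted p = 0.0658).

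None of 12 genes for the decay of AU-rich messenger RNA, the class to which the CSF2 message belongs, has a row. Of 15 cytokines often made together with CSF2, 3 have a row, 2 higher and 1 lower. IL11, of the interleukin-6 family, was at 223.65, 225.5 and 225.83 in shCREPT libraries, against 21, 18.04 and 20.04 in shControl libraries. CXCL8, a neutrophil attractant, was at 10.3, 11.44 and 9.84 in shCREPT libraries, against 5.16, 4.67 and 5.39 in shControl libraries. The groups did not overlap for either gene, as in 93.3% of the listed genes, and each was higher in all shCREPT libraries. IL33, an alarm cytokine of tissue cells, was listed at 0.03, 0 and 0 in shCREPT libraries, against 0.14, 0.12 and 0.32 in shControl libraries. The groups of IL33 did not overlap either, and IL33 was lower in shCREPT. Its call (limma adjusted p = 0.0409) was lost in several settings, including the rescaling (adjusted p = 0.108).

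**Figure D4:**
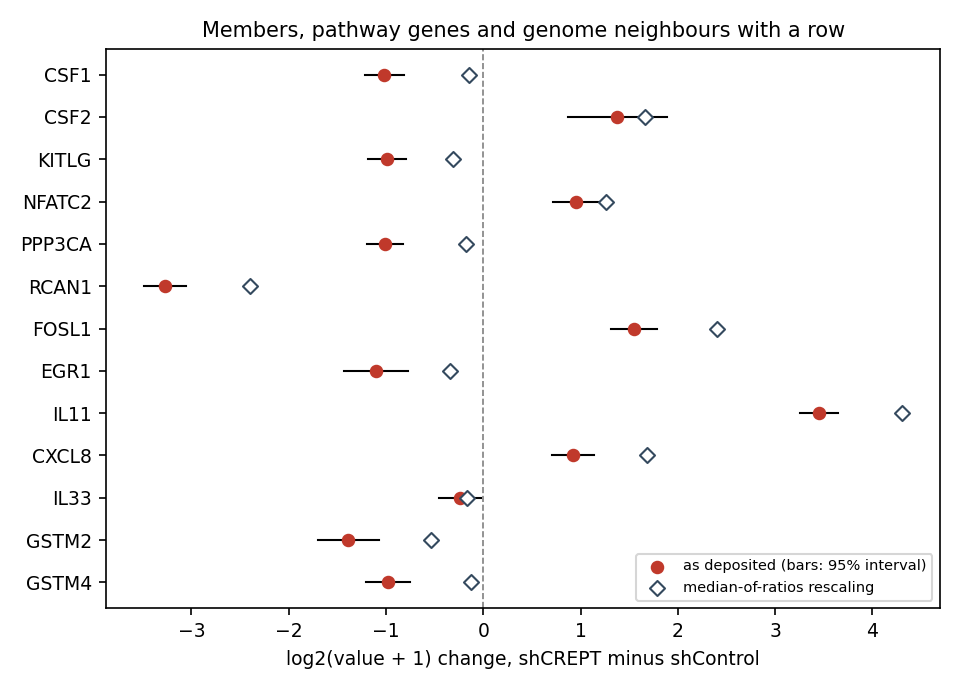
Change in log2(value + 1), shCREPT minus shControl, for the members, the pathway genes described in the text and the listed neighbours of CSF1; red points with 95% limma intervals are the deposited values and open diamonds the median-of-ratios rescaling. The rescaling moves points to the right, leaving CSF1 (−0.14), PPP3CA (−0.18), IL33 (−0.17) and GSTM4 (−0.13) nearest to no change.

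In the genome around CSF1, 2 of the 42 other protein-coding genes within 1000000 bases have a row (4.76%, against 6.12% of all 19951 protein-coding genes of the annotation). They are the glutathione transferases GSTM2 (chromosome 1, 109668022 to 109709551) and GSTM4 (109656081 to 109674836), 201 and 235 kb from CSF1. GSTM2 averaged 15.4 ± 0.123 in shCREPT and 42.3 ± 6.79 in shControl, and GSTM4 24.3 ± 0.139 in shCREPT and 49.1 ± 4.97 in shControl (SD, n = 3 each). Under median-of-ratios rescaling GSTM4 lost its call (limma adjusted p = 0.261). The pair overlap each other on the same strand and belong to a family of similar sequence, and the split of reads between the 2 is uncertain. Around CSF2, in the cytokine cluster that also holds IL3, 0 of 31 other protein-coding genes within the same distance have a row. No other gene of the annotation, on either strand, overlaps CSF1 or CSF2.

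By the root mean square difference of centred log2(value + 1) profiles over the 6 libraries, the genes most like CSF1 among 720 with a higher group mean of at least 5 were LAMB2, CHST2, ASS1, SEMA6A and LIMCH1, with differences of 0.0495 to 0.0547. Their levels were 1.98-fold to 2.20-fold lower in shCREPT. LAMB2, a laminin chain, was at 218 ± 10.1 in shCREPT and 432 ± 39.0 in shControl (SD, n = 3 each) (limma adjusted p = 0.000111). All 5 genes, like CSF1, had their highest value in shControl library 3, and LAMB2, ASS1, SEMA6A and LIMCH1 did not pass under median-of-ratios rescaling. The genes most like CSF2 among 1629 were ENSG00000259720, F3 (tissue factor), PET117, LINC02617 and DGKG, with differences of 0.143 to 0.181. ENSG00000259720 was at 0.69, 2.14 and 1.1 in shCREPT libraries and listed at 0 in each shControl library, while F3 was at 10.81, 15.06 and 11.69 in shCREPT libraries, against 3.64, 3.98 and 4.92 in shControl libraries. In each of these 5 genes, as in CSF2, shCREPT library 2 was the highest. Likeness here rests on 2 groups of libraries and on one scale, and is a description. These genes were picked for a profile like that of the member. Their shared highest library, their folds and their lost calls therefore follow largely from that choice and are no separate result.

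The labelled cell type and other cell types were read from marker lists. Of 10 glioma and astrocyte markers 4 have a row and all 4 were lower, as were 54.4% of all listed genes. The 4 summed to 73.18 to 89.15 in shCREPT libraries and 501.7 to 530.39 in shControl libraries. Most of the shControl sum was GFAP, with means of 45.5 in shCREPT and 434 in shControl. In the same order SLC1A3 averaged 36.5 and 78.4, S100B 0.09 and 2.68, and CHI3L1 0.393 and 2.99. SLC1A3 lost its call under median-of-ratios rescaling. None of 15 macrophage, monocyte and microglia markers and none of 11 T and NK cell markers has a row. The 1 granulocyte and mast cell marker of 8 with a row, FCGR3B, was listed at 0 in each shCREPT library and at 0.12, 0.11 and 0.64 in shControl libraries and did not pass (limma adjusted p = 0.0811). Of 5 endothelial markers 2 have a row and both were lower, CDH5 and KDR (summed value 11.64 to 13.66 in shCREPT and 43.28 to 45.26 in shControl), and KDR lost its call under that rescaling. Of 5 fibroblast markers 1 has a row, COL1A2, at 431.57 to 492.37 in shCREPT and 1084.21 to 1099.05 in shControl. The part of these shifts in the values of CSF1 and CSF2 was not tested, and in bulk RNA fewer cells that make a transcript cannot be told apart from less of it per cell. RPRD1B has no row, so the knockdown itself was not checked. The mitochondrial ribosomal RNA MT-RNR1, the highest listed gene, was at 6466 ± 498 in shCREPT and 3200 ± 258 in shControl (SD, n = 3 each).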

How the data were processed

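Total RNA of 6 libraries was sequenced after preparation with NEBNext Ultra reagents, per the labels' protocols. HISAT2, HTSeq and GRCh38 are named in the submitters' processing notes, with no version or role. The deposited table holds 1 normalized signal value per gene and library, per the file headers; the authors' normalization is not given in the sources used, and depth is unknown. Listed values summed to 31893.7 to 33330.8 per library, over the listed genes alone. Per the file headers, further columns are the fold change (a ratio), the same on a log2 scale, and the p-value before and after adjustment. All 1630 rows passed the authors' threshold (largest adjusted p-value 0.0497, smallest absolute log2 fold 1.00).

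Values were fitted as log2(value + 1) with limma 3.58.1 in R 4.3.3, without a filter on low values, so that CSF2 stayed in, and adjusted over all rows; the step was tested on simulated data. Any 2 libraries differed in at least 96.0% of rows. Annotation was GENCODE v29 on GRCh38 (1549 rows matched, 81 not). Python 3.11.15, pandas 2.3.3, scipy 1.17.1 and matplotlib 3.10.9 did the rest. Named were the members, list genes with a row (the receptor signalling list is not reported here), listed genes within 1000000 bases of a member and the 5 most alike profiles of each; members and lists were chosen with earlier results of these data known.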

Additional observations from a re-analysis of the deposited data

How the results depend on the processing

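CSF1 passed under each alternative but median-of-ratios rescaling, which gave a log2 change of −0.14 (limma adjusted p = 0.159; 6.85e-06 to 0.159 over its alternatives); the factors of that rescaling follow the majority of genes marked down. CSF2 passed under each alternative that held it (adjusted p = 0.000302 to 0.00556), while a minimum of 1 or of 10 in 3 libraries removed it. Dropping each library in turn gave −1.05 to −0.96 for CSF1 and 1.18 to 1.60 for CSF2, and 1408 to 1454 listed genes called (569 to 588 higher, 823 to 866 lower), against 1497 with all libraries (610 higher, 887 lower). The minimum of 10 left 487 genes to test and called 485 (214 higher, 271 lower). Median-of-ratios rescaling called 455 lower and turned the split of calls to 58.4% higher and 41.6% lower, against 40.7% and 59.3%. Deviations from the group means correlated by r = −0.09, 0.02 and −0.15 between libraries of the same number, and by −0.09 to 0.16 between others, so the numbers were not treated as pairs; with the replicate block, 1466 genes were called, both members among them (−1.02 and 1.38). Over the other named genes, 18 calls in 10 genes were lost under an alternative, 9 of them of IL33, 1 was gained (FCGR3B at a pseudocount of 0.1), and no direction turned. Depth is unknown and sets no bound.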
